A study of Mus musculus with 6 samples.

Results

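The carriers that move amino acids and small peptides into and out of the duodenal epithelium were examined in 6 duodenum samples. The set was 32 genes, taken by symbol from apical, basolateral and housekeeping carriers of this class, of 23026 gene symbols with a usable value in every sample. Levels were not used to choose them, though earlier results of these data were known when the set was chosen. RNA came from the first 2 cm of duodenum of mice aged 6 weeks on a mixed background, with 3 controls and 3 mutants. All 3 mutants carried Nkx2.2flox/SD and Villin-Cre/+, and mutants 1 and 3 also carried Rosa26Tomato/+, which mutant 2 did not. Control 1 was Nkx2.2flox/+ with Rosa26Tomato/+, control 2 carried Rosa26Tomato/+ alone, and control 3 was wild type. Nkx2.2 is a homeodomain transcription factor needed for enteroendocrine cells, and the SD allele alters a conserved domain of the protein. Villin-Cre recombines in the intestinal epithelium, so the mutant epithelium keeps only the SD allele, while the other cells of the gut wall also carry that allele over a floxed allele. No control carried Cre, so an effect of Cre, of the SD allele in other cells and of the allele in the epithelium cannot be told apart.

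Dietary protein reaches the enterocyte as free amino acids and as short peptides. Apical carriers of the brush border take both up, peptidases inside the cell split most peptides, and basolateral exchangers and facilitators pass the amino acids on to blood. Several of these carriers work as pairs. The light chains of the Slc7 family need a heavy chain, Slc3a1 at the brush border and Slc3a2 at the basolateral side, to reach the membrane.

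Libraries held 19.1 to 22.9 M reads, as estimated from the deposited coverage. Values are FPKM, that is, fragments per kilobase of transcript and per M mapped reads, so levels of different genes can be compared per length. Changes are log2 differences, mutant minus control, on the log2(FPKM + 0.1) scale, with standard errors (SE) or intervals of 95% from limma, n = 3 per group. Nkx2-2 itself stood at 1.07, 0.647 and 0.716 FPKM in controls 1 to 3 and at 0.564, 0.772 and 0.909 FPKM in mutants 1 to 3. The SD transcript is still counted, so these levels do not check the labels. The 12 enterocyte markers summed to 23812 to 36710 FPKM in the controls and 29140 to 38101 FPKM in the mutants. The tissue is a mixture of cell types, in which fewer cells of a type and less RNA per cell cannot be told apart.

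Of the 32 carriers, 30 had a mean of at least 0.2 FPKM and were tested. None passed an adjusted p of 0.05 in limma with Benjamini-Hochberg adjustment over 14642 genes, where 0 genes passed (0%). At an unadjusted p under 0.05 there were 3 carriers, against 416 genes (2.84% of all tested). The groups did not overlap for the same 3 carriers, 10% of those tested, against 1108 genes (7.57%). These 3 were Slc43a1 and Slc1a5, with higher values in the mutants, and Slc7a6, with lower values. With limma-voom on reads recovered from the coverage, 0 of all genes passed the adjusted threshold and 379 had an unadjusted p under 0.05. The median log2 change over the 30 carriers was -0.05, and over all genes tested it was 0.0042. The median size of the change was 0.11 for the carriers and 0.10 for all genes.

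**Figure D1:**
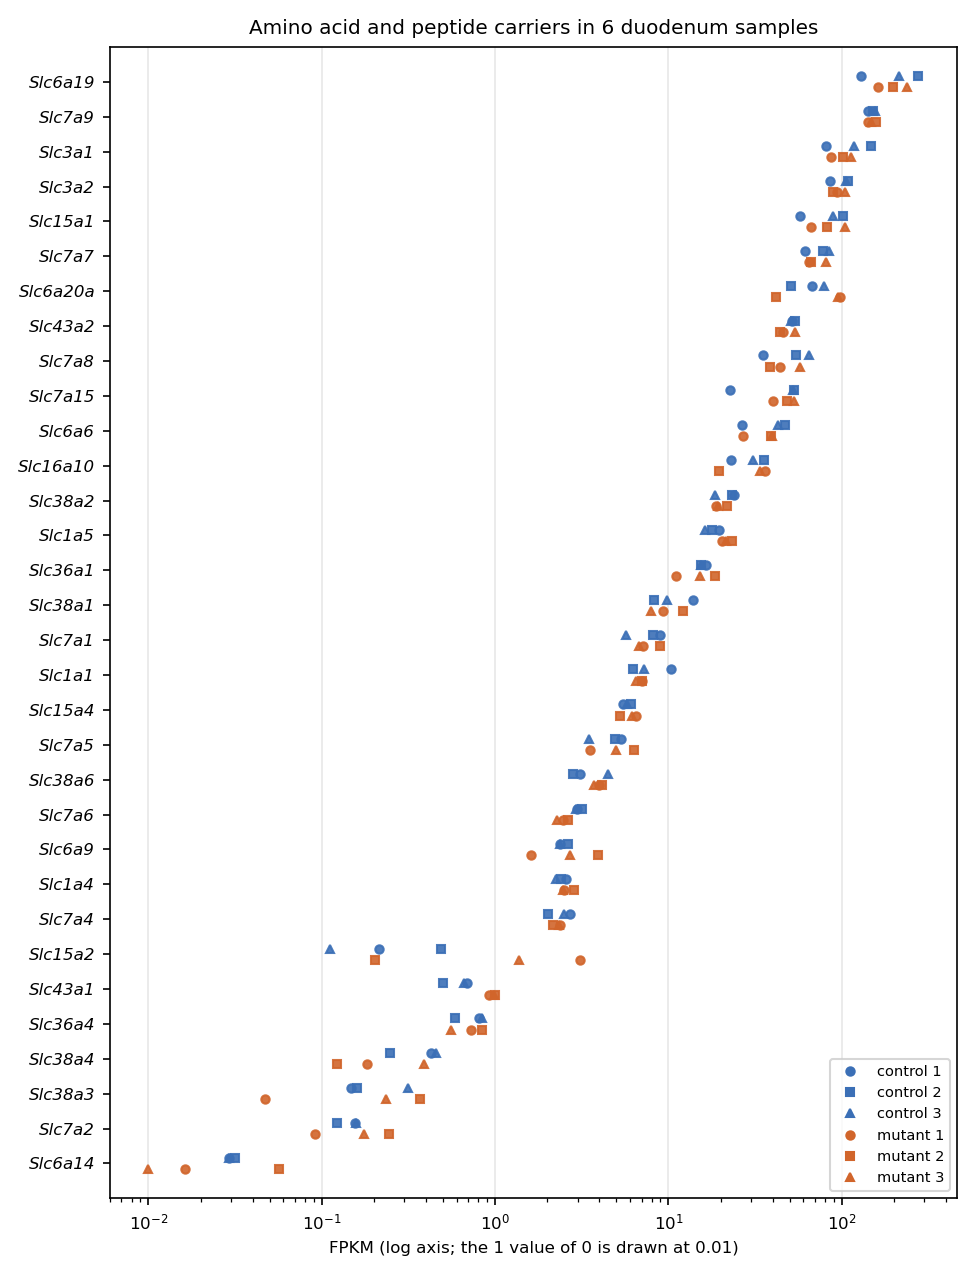
FPKM of the 32 carriers (log axis) in each of the 6 samples, ordered by mean level, with controls in blue and mutants in orange and the sample number given by the marker shape. Levels ran from Slc6a19, at 129 to 277 FPKM, down to Slc6a14, which was listed at 0 in mutant 3.

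Transcripts of the brush border carriers were among the most abundant of the set. The 9 apical carriers together gave 683 ± 139 FPKM in the controls and 668 ± 82.6 FPKM in the mutants (SD, n = 3 each). The 8 basolateral carriers gave 314 ± 45.1 FPKM and 297 ± 36.7 FPKM, and the 15 others gave 121 ± 10.3 FPKM and 129 ± 9.55 FPKM. Of the 32 genes, 25 had a mean of at least 1 FPKM, 16 of at least 10 FPKM, 7 of at least 50 FPKM and 3 of at least 100 FPKM.

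The bases before the start sites of 4 abundant apical carriers are shown because these 4, Slc6a19, Slc15a1, Slc3a1 and Slc7a9, were all lowest in control 1 and mutant 1. This pair was picked after the values were seen. Slc7a9 differed little, at 141 FPKM in both against 147 to 158 FPKM in the others. Slc6a6, an apical carrier that was also lowest in this pair, is not shown. Each sequence is the 250 bases before the start in the RefSeq promoter table of build GRCm38.p6, which held 25 of the 32 carriers. Slc6a19 is at chr13:73692637-73692886 (minus strand), Slc15a1 at chr14:121505255-121505504 (minus strand), Slc3a1 at chr17:85028097-85028346 (plus strand) and Slc7a9, at the first of 2 starts, at chr7:35448842-35449091 (plus strand). All are written 5′ to 3′ along the gene, and capitals mark matches to the motifs searched.
Slc6a19: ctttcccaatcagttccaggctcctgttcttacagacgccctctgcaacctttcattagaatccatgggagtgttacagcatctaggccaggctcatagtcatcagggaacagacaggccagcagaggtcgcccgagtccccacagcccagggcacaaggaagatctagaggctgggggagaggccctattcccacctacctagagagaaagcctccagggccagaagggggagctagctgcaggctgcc
Slc15a1: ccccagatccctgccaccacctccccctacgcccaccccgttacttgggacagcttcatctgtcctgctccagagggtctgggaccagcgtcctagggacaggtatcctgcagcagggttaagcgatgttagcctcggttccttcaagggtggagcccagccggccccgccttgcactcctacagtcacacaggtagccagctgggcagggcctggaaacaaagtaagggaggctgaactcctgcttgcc
Slc3a1: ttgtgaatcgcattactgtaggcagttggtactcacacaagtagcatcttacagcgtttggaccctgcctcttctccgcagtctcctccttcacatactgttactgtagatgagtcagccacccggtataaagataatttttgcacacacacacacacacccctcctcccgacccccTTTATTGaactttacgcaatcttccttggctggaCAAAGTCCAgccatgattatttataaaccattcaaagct
Slc7a9: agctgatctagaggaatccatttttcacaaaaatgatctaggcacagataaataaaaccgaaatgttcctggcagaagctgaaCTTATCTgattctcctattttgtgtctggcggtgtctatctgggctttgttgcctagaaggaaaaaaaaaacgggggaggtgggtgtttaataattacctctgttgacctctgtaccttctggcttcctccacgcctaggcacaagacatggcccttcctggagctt
The motifs were searched on both strands, and none of the marked matches overlaps another. The HNF4 motif CAAAGTCCA stood in the Slc3a1 sequence 39 bases before the start, and was found in 0.384% of the 32851 promoters of the table. A CDX motif TTTATNG, found in 9.81% of promoters, stood in the same sequence 73 bases before the start. The GATA motif AGATAAG, found in 2.74% of promoters, stood in the Slc7a9 sequence on the opposite strand, at 167 bases before the start. The HNF1 half-site GTTAAT (6.43% of promoters) and the amino acid response motif TGATGNAA (3.45%) were in none of these 4 windows. Among the 25 carriers, GTTAAT was in 5 (Slc16a10, Slc36a1, Slc6a20a, Slc7a15 and Slc7a7) and TGATGNAA in 1 (Slc7a7). TTTATNG was in 2 (Slc3a1 and Slc7a15), CAAAGTCCA in 1 (Slc3a1) and AGATAAG in 1 (Slc7a9). The 25 carriers had 38 promoters, and these are counts of carriers, so they are not comparable with the percentages of promoters. The Slc6a19 and Slc15a1 windows held no match. A match is a description of the letters only.

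Slc15a1, the proton-coupled carrier of short peptides at the brush border (chr14:121858843-121904476 in mm9, the build of the deposited tables), stood at 57.5, 101 and 89.1 FPKM in controls 1 to 3. In mutants 1 to 3 it stood at 66.6, 82.4 and 104 FPKM. The groups overlapped throughout, and sample 1 was the lowest in each. The means were 82.7 ± 22.7 FPKM in the controls and 84.3 ± 18.8 FPKM in the mutants (SD, n = 3 each), with a log2 change of 0.04 (interval -0.52 to 0.61). The change had the opposite sign without control 1, at -0.20.

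Slc6a19, the main sodium-coupled carrier of neutral amino acids in the small intestine (chr13:73818605-73838143), was the most abundant carrier of the set. Its controls stood at 129, 277 and 214 FPKM and its mutants at 161, 198 and 239 FPKM. The control samples differed from one another by more than the group means did, and the lowest and the highest of the 6 samples were both controls. Means were 207 ± 74.1 FPKM and 199 ± 38.7 FPKM. The fitted mutant to control fold had an interval of 0.634 to 1.57, so a change of that size in either direction could not be told from none with these samples.

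Slc7a9 is the light chain that exchanges cystine and cationic amino acids at the brush border, together with the heavy chain Slc3a1. Slc7a9 (chr7:36234111-36251053) was the steadiest abundant carrier. Controls stood at 141, 151 and 156 FPKM and mutants at 141, 158 and 147 FPKM. Its means were 149 ± 7.69 FPKM and 149 ± 8.80 FPKM (SD, n = 3 each), and the fitted fold had an interval of 0.867 to 1.14. Its heavy chain was less even. Slc3a1 (chr17:85427687-85463581) stood at 80.8, 148 and 118 FPKM in the controls, against 86.8, 102 and 113 FPKM in the mutants, with the control values spanning the mutant ones. Its log2 change was -0.17 (SE 0.22, interval -0.68 to 0.35).

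Slc6a20a, which carries proline and other imino acids (chr9:123546025-123587950), had its highest and its lowest value in mutants. Controls stood at 66.9, 50.9 and 79.1 FPKM and mutants at 97.9, 41.5 and 95.5 FPKM. The log2 change was 0.18 (interval -0.62 to 0.97). Its neighbour and close copy Slc6a20b stood at 3.40, 3.36 and 6.08 FPKM in the controls, against 6.53, 3.30 and 6.87 FPKM in the mutants. Control 3, mutant 1 and mutant 3 were the 3 highest samples for both genes. How the authors' counting shared reads between these copies is not given in the sources used here, so their levels are uncertain.

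The other apical carriers were lower. Slc6a6, the taurine carrier, ranged from 26.5 to 47.1 FPKM in the controls and from 26.9 to 39.4 FPKM in the mutants. Slc36a1, a proton-coupled carrier of small neutral amino acids, ranged from 15.4 to 16.5 FPKM in the controls and from 11.1 to 18.6 FPKM in the mutants. Slc1a1, the glutamate and aspartate carrier, ranged from 6.22 to 10.4 FPKM in the controls and from 6.46 to 7.02 FPKM in the mutants. For each of these 3 genes the groups overlapped. Slc6a14, a carrier of neutral and cationic amino acids, rested on 2, 2 and 2 reads in controls and 1, 4 and 0 reads in mutants, too few for a fold. Of the 8 apical carriers tested, 2 had a log2 change above 0 and 6 below, with a median of -0.06 and a range of -0.19 to 0.18.

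At the basolateral side the heavy chain Slc3a2, the partner of several light chains (chr19:8781372-8797859), was the most abundant. It stood at 85.0, 108 and 106 FPKM in the controls, against 93.8, 88.4 and 105 FPKM in the mutants. The log2 change was -0.06 (interval -0.34 to 0.23). Its light chain Slc7a7, which exports cationic amino acids in exchange for neutral ones (chr14:54989126-55036539), stood at 61.1, 77.8 and 84.8 FPKM in the controls, against 65.0, 66.6 and 81.4 FPKM in the mutants. For both genes control 1 was the lowest sample and the groups overlapped. Slc7a8, the light chain that exchanges neutral amino acids (chr14:55341052-55400723), stood at 35.2, 54.1 and 64.8 FPKM in the controls, against 44.3, 38.4 and 57.4 FPKM in the mutants. Log2 changes were -0.07 (interval -0.41 to 0.28) for Slc7a7 and -0.11 (interval -0.68 to 0.46) for Slc7a8.

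Other basolateral carriers also overlapped between the groups. Slc43a2, which lets out branched-chain and other essential neutral amino acids (chr11:75345196-75391074), stood at 51.5, 53.6 and 50.8 FPKM in the controls, against 45.6, 44.1 and 54.0 FPKM in the mutants. Its mutant values lay on both sides of the narrow control range, and the log2 change was -0.12 (SE 0.10, interval -0.36 to 0.11). Slc16a10, the carrier of aromatic amino acids, ranged from 23.1 to 35.8 FPKM in the controls and from 19.6 to 36.3 FPKM in the mutants. Slc6a9, a glycine carrier, ranged from 2.36 to 2.63 FPKM in the controls and from 1.61 to 3.91 FPKM in the mutants, so its spread was wider among mutants.

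Slc43a1, a facilitator of large neutral amino acids (chr2:84679565-84703743), was the least abundant basolateral carrier. Controls stood at 0.692, 0.504 and 0.666 FPKM and mutants at 0.917, 1.00 and 0.980 FPKM. Every mutant was above every control. The means were 0.621 ± 0.102 FPKM and 0.967 ± 0.0447 FPKM (SD, n = 3 each), for a log2 change of 0.57 (SE 0.19, interval 0.12 to 1.03). With 1 FPKM added in place of 0.1 the change was 0.28. The unadjusted p in limma was 0.019 and the adjusted p was 1. These values rest on 34, 23 and 33 reads in controls and 39, 51 and 50 reads in mutants.

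Slc7a6, a second light chain for the exchange of cationic and neutral amino acids (chr8:108692775-108722604), had lower values in the mutants. It stood at 2.95, 3.19 and 2.94 FPKM in the controls, against 2.47, 2.62 and 2.27 FPKM in the mutants. The highest mutant was below the lowest control. Means were 3.02 ± 0.141 FPKM and 2.45 ± 0.174 FPKM (SD, n = 3 each). The log2 change was -0.29 (SE 0.12), with an unadjusted p of 0.046 in limma and an adjusted p of 1. Its unadjusted p was under 0.05 in 7 of 16 alternative analyses, and with any 1 library left out it was 0.057 to 0.148 in limma. Of the 8 basolateral carriers tested, 2 had a log2 change above 0 and 6 below, with a median of -0.06.

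**Figure D2:**
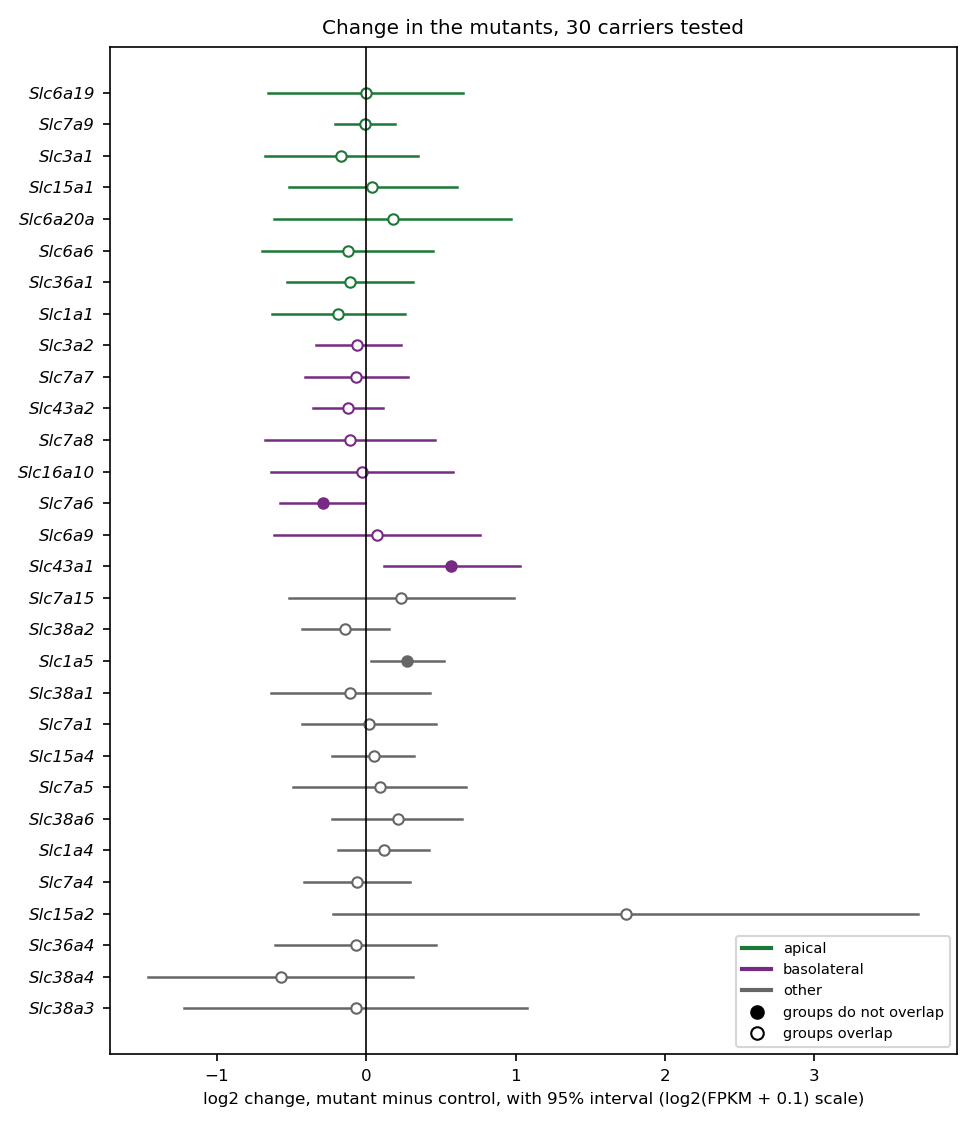
Log2 change, mutant minus control, of the 30 carriers tested, with the interval of 95% from limma, grouped by role (colour). Filled points mark the 3 carriers whose groups do not overlap, Slc43a1 at 0.57, Slc1a5 at 0.27 and Slc7a6 at -0.29, and Slc15a2 has the widest interval.

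Among the other carriers, Slc1a5, the glutamine carrier (chr7:17366695-17383623), stood at 19.6, 17.8 and 16.3 FPKM in the controls. In mutants it stood at 20.3, 23.3 and 21.4 FPKM, each above all controls, though mutant 1 was close to control 1. Means were 17.9 ± 1.62 FPKM and 21.7 ± 1.51 FPKM (SD, n = 3 each). The log2 change was 0.27 (SE 0.10, interval 0.03 to 0.52), with an unadjusted p of 0.032 in limma and an adjusted p of 1. The unadjusted p was under 0.05 in 12 of 16 alternative analyses, and in limma it was 0.07 to 0.108 without control 2, control 3, mutant 2 or mutant 3.

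Slc15a2, the peptide carrier best known from kidney (chr16:36750250-36785048), had the largest fitted change of the set, and is described here because its values were seen to differ. Controls stood at 0.213, 0.488 and 0.111 FPKM and mutants at 3.11, 0.204 and 1.38 FPKM. Mutants 1 and 3 were above all controls, while mutant 2 lay within the control range. Mutants 1 and 3 carried Rosa26Tomato/+ and mutant 2 did not. Controls 1 and 2, at 0.213 and 0.488 FPKM, carried it too. The part of that allele in these values was not tested. The values rest on 5, 30 and 9 reads in controls and on 188, 17 and 99 reads in mutants. Nearly all of these reads, except in control 1, were assigned to the long isoform NM_021301, with 1.3, 28.1 and 9.0 reads in controls and 176.7, 17.0 and 92.8 reads in mutants. The log2 change was 1.74 (SE 0.83, interval -0.22 to 3.70), with an unadjusted p of 0.075 in limma and an adjusted p of 1. Without mutant 1 the change was 0.98, and without mutant 2, the mutant within the control range, it was 2.68. The unadjusted p in limma without mutant 2 was 0.0019, the only one under 0.05 in 15 alternative analyses. With any other library left out it was 0.061 to 0.234 in limma. The pseudocount also moved the change, to 0.85 with 1 FPKM added.

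**Figure D3:**
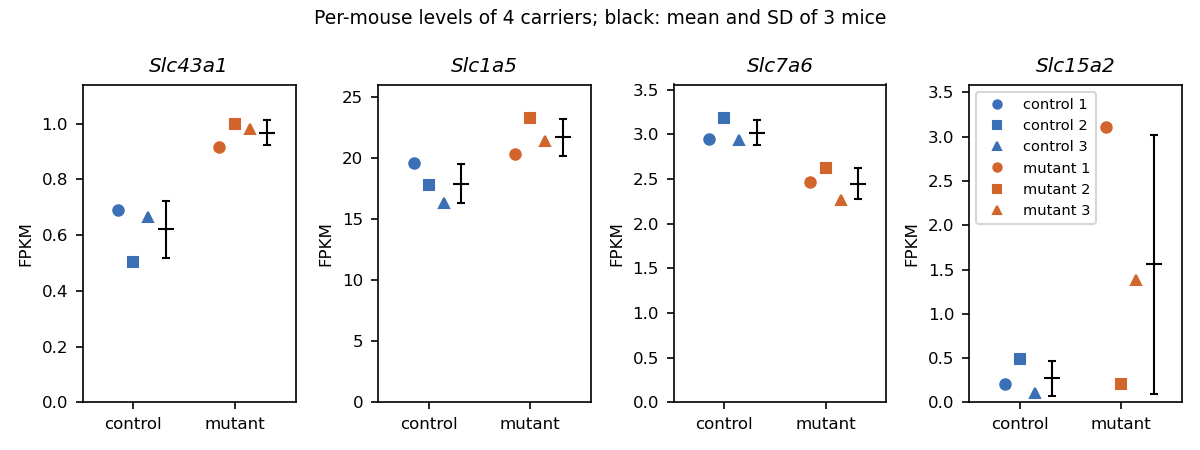
FPKM of Slc43a1, Slc1a5, Slc7a6 and Slc15a2 in each mouse (axes from 0), with the mean and SD of 3 mice in black. The groups are apart for the first 3 genes, while for Slc15a2 mutant 2, at 0.204 FPKM, lies among the controls.

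Slc7a15, a light chain that prefers aromatic amino acids and pairs with Slc3a1 in the mouse (chr12:8535289-8605872), stood at 22.8, 53.2 and 52.3 FPKM in the controls, against 40.0, 48.4 and 53.3 FPKM in the mutants. Control 1 was low, and the other 5 samples overlapped. Its log2 change was 0.23 (interval -0.52 to 0.99), and without control 1 it was -0.17. The Slc38 carriers of glutamine, alanine and related amino acids covered a wide range of levels. Slc38a2 ranged from 18.6 to 24.0 FPKM in the controls and from 18.7 to 21.8 FPKM in the mutants, and Slc38a1 from 8.21 to 13.9 FPKM and from 7.96 to 12.1 FPKM. Slc38a6 ranged from 2.80 to 4.51 FPKM in the controls and from 3.71 to 4.14 FPKM in the mutants. Slc38a4 and Slc38a3 were under 0.5 FPKM in every sample, with log2 changes of -0.57 (interval -1.46 to 0.31) and -0.07 (interval -1.22 to 1.08). They rest on 88 reads in all controls and 56 in all mutants for Slc38a4, and on 29 and 32 for Slc38a3.

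The carriers that most cells use were present at modest levels. Slc7a1, the general carrier of cationic amino acids, ranged from 5.73 to 8.94 FPKM in the controls and from 6.77 to 8.96 FPKM in the mutants. Slc7a5, the light chain of the large neutral amino acid exchanger of dividing cells, ranged from 3.47 to 5.36 FPKM and from 3.52 to 6.29 FPKM. Slc1a4, an exchanger of small neutral amino acids, ranged from 2.24 to 2.55 FPKM and from 2.45 to 2.87 FPKM. Slc15a4, which moves peptides and histidine out of lysosomes, ranged from 5.47 to 6.11 FPKM and from 5.29 to 6.52 FPKM. In all 4 of these genes the groups overlapped. Slc7a4, a relative of the cationic carriers, ranged from 2.03 to 2.72 FPKM in the controls and from 2.16 to 2.37 FPKM in the mutants, and Slc36a4, a carrier of proline and tryptophan, from 0.591 to 0.844 FPKM and from 0.556 to 0.844 FPKM. Slc7a2, an arginine carrier below the filter, ranged from 0.123 to 0.157 FPKM in the controls and from 0.0909 to 0.244 FPKM in the mutants. Of the 14 tested carriers of this last group, 8 had a log2 change above 0 and 6 below, with a median of 0.03.

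Mice of the same group differed more than the group means did for the typical carrier. The median SD of log2 values within a group was 0.28 over the 30 carriers tested, above their median change of 0.11 in size, and it was 0.18 over all genes tested. Control 1 and mutant 1 were the 2 lowest samples for 8 of the 30 carriers (26.7%), and for 939 of the 14642 genes (6.41%). This pair of samples was picked after the values were seen. The 8 were Slc15a1, Slc6a19, Slc6a6, Slc7a7, Slc7a9, Slc7a15, Slc3a1 and Slc38a3. Enpep, the brush border aminopeptidase that removes acidic residues, was low in the same mice, at 111, 213 and 174 FPKM in the controls, against 107, 137 and 151 FPKM in the mutants. Control 1 and mutant 1 were also the 2 lowest samples for Fabp2, a fatty acid binding protein of enterocytes, at 2782 and 6332 FPKM against 6772 to 10129 FPKM in the others. They were the 2 lowest for Vil1, an actin bundler of microvilli, at 544 and 539 FPKM against 551 to 672 FPKM. The same held for the scaffold Slc9a3r1, at 412 and 438 FPKM against 661 to 772 FPKM, and the cytosolic dipeptidase Cndp2, at 118 and 120 FPKM against 156 to 253 FPKM. Apob and Sis, from the same list of enterocyte markers as Fabp2 and Vil1, did not follow this pair. Apob was lowest in mutant 2, at 136 FPKM against 167 to 183 FPKM in the others. Sis stood at 270, 272 and 313 FPKM in controls 1 to 3 and at 186, 235 and 319 FPKM in mutants 1 to 3. From the lists of Slc9a3r1 and of Enpep and Cndp2, the scaffold Pdzk1 and the peptidase Dpp9 did not follow it either. Pdzk1 was at 100 FPKM in mutant 2 and 106 FPKM in mutant 1, and Dpp9 was highest in control 1, at 16.9 FPKM. The peptidase Dpp4 did follow it, at 65.3 FPKM in control 1 and 60.3 FPKM in mutant 1. How many genes of these lists follow the pair was not counted. The 12 enterocyte markers summed to 23812 FPKM in control 1, 30045 FPKM in mutant 1 and 29140 FPKM in mutant 2. Epcam, a marker of all epithelial cells, was at 720 to 777 FPKM over the 6 samples. The part of the enterocyte content of a sample in the carrier levels was not tested.

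Single markers of other cell types also differed between the groups at an unadjusted p under 0.05 in limma, each with an adjusted p of 1. They were 1 of 6 enteroendocrine, 1 of 4 goblet, 1 of 4 tuft and 1 of 5 immune markers tested. Over all genes tested the share was 2.84%. The enterocyte, crypt, Paneth, smooth muscle, pancreatic acinar, endothelium and enteric neuron lists had none. Chga, of enteroendocrine cells, ranged from 22.0 to 36.2 FPKM in the controls and from 13.0 to 18.6 FPKM in the mutants. Tff3, of goblet cells, ranged from 3207 to 3819 FPKM and from 3924 to 4801 FPKM, and Ltc4s, of tuft cells, from 7.30 to 11.2 FPKM and from 9.53 to 15.0 FPKM. Cd79a, of B cells, ranged from 13.2 to 14.2 FPKM and from 14.9 to 17.4 FPKM. Log2 changes above and below 0 numbered 2 and 4 for the enteroendocrine list and 4 and 0 for goblet. They numbered 3 and 1 for tuft and 3 and 2 for immune markers. Lists without such a gene were uneven too, at 5 and 0 for Paneth and 1 and 8 for pancreatic acinar markers. The median log2 changes of these 2 lists were 0.37 and -1.55. Counts were 6 and 6 for enterocyte, 2 and 6 for crypt and 3 and 2 for smooth muscle markers. They were 0 and 3 for endothelium and 2 and 3 for enteric neuron markers. The summed FPKM of each of these lists overlapped between the groups. The part of these cell types in the carrier values was not tested.

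Genes of Brunner glands, the mucous glands of the upper duodenum, were highest in those 2 mice. Tff2 stood at 4468, 464 and 119 FPKM in the controls, against 4535, 1308 and 346 FPKM in the mutants. Muc6 stood at 79.7, 7.19 and 1.76 FPKM and at 63.8, 24.3 and 8.30 FPKM. The list of Brunner gland and stomach markers, of which all 7 were in the tables, summed to 121 to 4549 FPKM in the controls and to 357 to 4601 FPKM in the mutants. The defining stomach genes were at or near 0, with Gkn1 at most 0.101 FPKM, Gkn2 at most 0.308 FPKM, Atp4a at most 0.0871 FPKM and Muc5ac listed at 0 in 5 of 6 samples. Tff1, the seventh gene of the list, did not follow this order of mice. It stood at 1.40, 0.381 and 0.351 FPKM in the controls, against 1.96, 2.38 and 2.20 FPKM in the mutants, without overlap, with a log2 change of 1.73 (SE 0.45), an unadjusted p of 0.0059 and an adjusted p of 1 in limma. The part of the gland content of a sample in the carrier levels was not tested. With control 1 and mutant 1 left out, which was decided after seeing the data, 0 carriers passed the adjusted threshold in limma and 2 had an unadjusted p under 0.05.

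**Figure D4:**
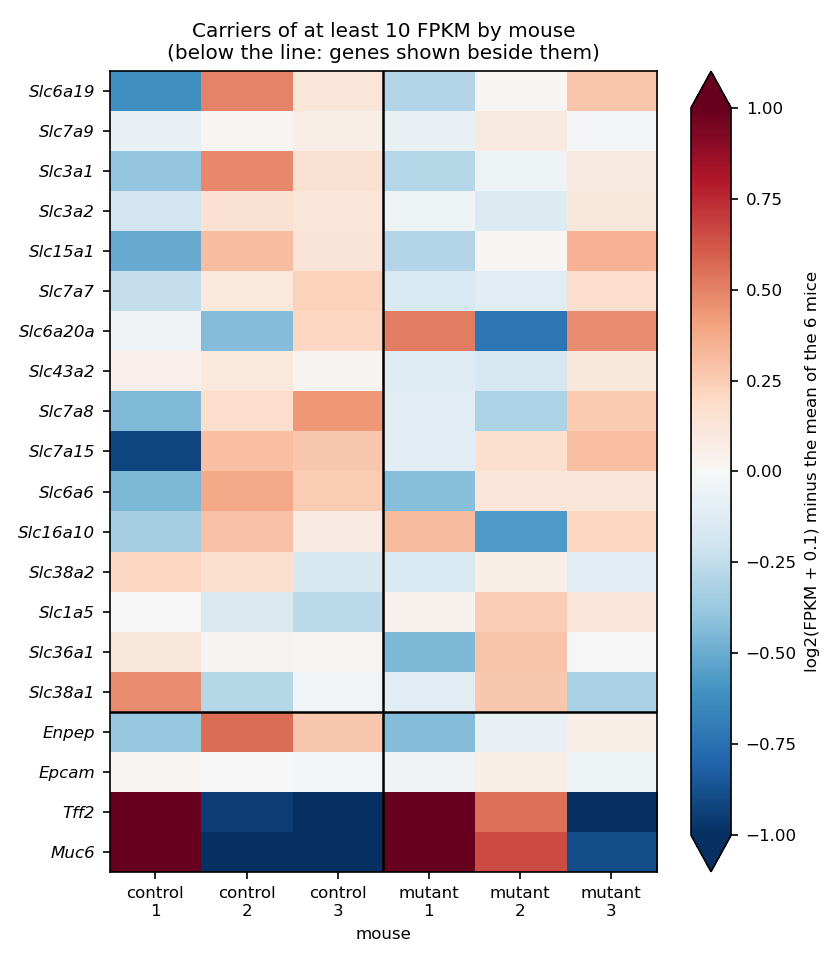
Log2(FPKM + 0.1) minus the mean of the 6 mice for the 16 carriers with a mean of at least 10 FPKM (rows above the line) and 4 genes shown beside them (below the line), by mouse. Colours saturate at -1 and 1. Control 1 and mutant 1 are low for Slc6a19, Slc15a1, Slc3a1, Slc6a6 and Enpep and high for Tff2 and Muc6.

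Partners were compared as ratios within each mouse, for 3 pairs or sums. Slc7a9 over Slc3a1 was 1.74, 1.02 and 1.31 in controls and 1.62, 1.55 and 1.30 in mutants. The 4 light chains Slc7a7, Slc7a8, Slc7a6 and Slc7a5, summed, over Slc3a2 gave 1.23, 1.29 and 1.47 in controls and 1.23, 1.29 and 1.40 in mutants. Slc7a7 made up 54.3% to 58.4% of these light chains in controls and 55.7% to 58.5% in mutants, and Slc7a8 made up 33.6% to 41.6% and 33.7% to 39.3%. Slc7a15 over Slc3a1 was 0.282, 0.359 and 0.442 in controls and 0.460, 0.475 and 0.472 in mutants. This was the only one of the 3 ratios whose groups did not overlap, and no test was run on it. The closest values were 0.442 in control 3 and 0.460 in mutant 1. How often ratios of other gene pairs are apart in this way was not computed.

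**Figure D5:**
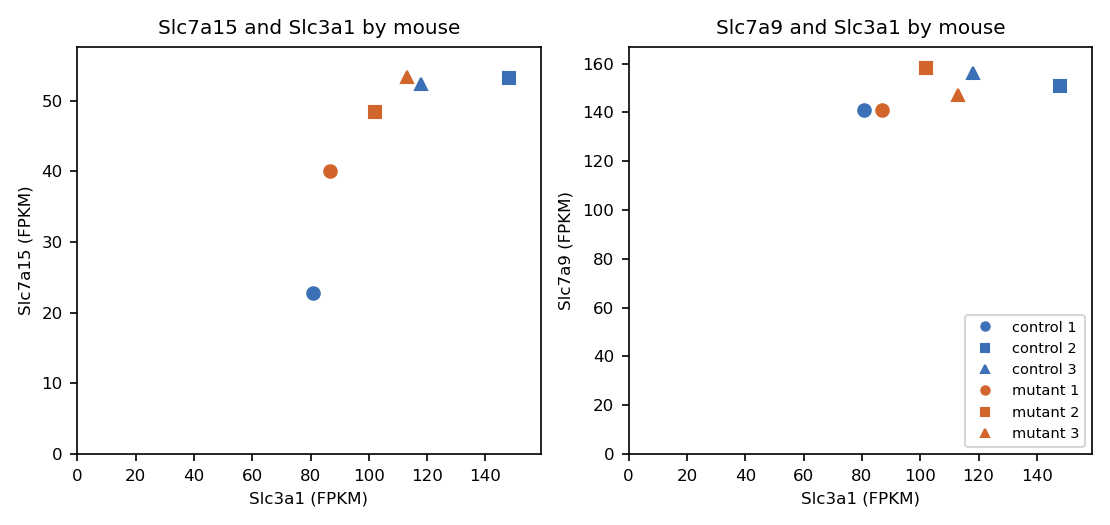
Left, Slc7a15 against Slc3a1, and right, Slc7a9 against Slc3a1, in FPKM on axes from 0, with 1 point per mouse. Slc7a15 is lowest in control 1 (22.8 FPKM) and mutant 1 (40.0 FPKM), the 2 mice lowest for Slc3a1, whereas Slc7a9 stays between 141 and 158 FPKM while Slc3a1 runs from 80.8 to 148 FPKM.

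Of the carriers, 11 had more than 1 isoform in the tables, with 28 isoforms. Of these, 23 were tested and none passed the adjusted threshold in limma, against 5 of 17922 isoforms (0.0279%). None had an unadjusted p under 0.05 (3.53% of all isoforms tested), the smallest being 0.059 in limma. That count of 0 was 5 without mutant 2, 2 with a pseudocount of 1 FPKM, and 1 without control 2 or control 3, with none past the adjusted threshold. Slc7a15 was split between a longer and a shorter transcript. NM_177802, the longer, made up 44.1%, 45.2% and 49.6% of the gene in controls and 56.8%, 53.6% and 52.2% in mutants, without overlap. Shares of minor isoforms were apart too. NM_021291 of Slc7a9 made up 2.17% to 2.99% in controls and 0.341% to 2.07% in mutants. NM_011405 of Slc7a7 made up 0% to 0.710% in controls and 0.876% to 2.07% in mutants. Control 3 and mutant 2 were assigned equal reads, 123.3 for NM_021291 and 26.5 for NM_011405. The FPKM of NM_011405 overlapped between the groups, at 0.602 in control 3 and 0.584 in mutant 2. How often shares are apart over all isoforms was not computed, and the shares were not tested. Slc7a9 was carried almost wholly by NM_001199016, at 89.2% to 97.8%, and Slc43a2 mostly by NM_173388, at 64.3% to 76.9%. For Slc7a7, NM_001253680 made up 48.1% to 74.0% and varied within both groups. The few reads of Slc43a1 were assigned to NM_001081349 in full in control 3 and to NM_024497 in full in mutants 1 and 3, so its isoforms cannot be compared at this depth.

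In the authors' deposited table all 32 carriers had an adjusted p of 1. The smallest unadjusted p in the authors' deposited table was 0.06, for Slc15a2, with a fold change of 6.81. The fold change in the authors' deposited table was 1.21 for Slc1a5, 1.46 for Slc43a1 and 0.817 for Slc7a6. For the 30 carriers tested here, which come from the same samples, the direction in the authors' deposited table was the same for 30.

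Genes that work beside these carriers were examined in the same way. Of 26 other carriers of amino acids and peptides, 14 were tested, with 7 log2 changes above 0, 7 below and a median of -0.01. Slc6a18, a neutral amino acid carrier better known from kidney, stood at 0.0366, 0.808 and 0.319 FPKM in the controls, against 0.0535, 0.222 and 0.148 FPKM in the mutants, and its groups overlapped. Of 3 accessory proteins, 1 change was above 0 and 2 below, with a median of -0.06. Pdzk1, a scaffold of the brush border, had a log2 change of -0.06 (SE 0.15), and Tmem27, the partner of these carriers in kidney, of -0.24 (SE 0.25), which was -0.11 without control 1, -0.42 without control 2 and -0.07 without mutant 2. Tmem27 stood at 0.520 to 1.02 FPKM over all samples.

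Of 20 peptidases of the brush border and cytosol, 19 were tested, with 3 changes above 0, 16 below and a median of -0.10. Dpp4, which removes dipeptides ending in proline, ranged from 65.3 to 88.0 FPKM in the controls and from 60.3 to 71.2 FPKM in the mutants. Its log2 change was -0.22 (SE 0.13), and it was -0.34 without control 1 and -0.12 without control 2. Dpp9, its cytosolic relative, had a log2 change of -0.20 (SE 0.10), and the groups of both genes overlapped. The 16 genes of the amino acid deprivation response had 8 changes above 0 and 8 below, with a median of -0.0049. Stc2, a secreted glycoprotein of that list, had a log2 change of -0.66 (SE 0.28). Psph, the last enzyme of serine synthesis, stood at 6.73, 6.38 and 6.52 FPKM in the controls, against 7.65, 7.97 and 7.07 FPKM in the mutants, without overlap. The 19 genes of glutamine, arginine and citrulline metabolism had 8 changes above 0 and 11 below, with a median of -0.03. Cps1, the first enzyme of citrulline synthesis, had a log2 change of -0.16 (SE 0.10), which was -0.25 without mutant 2 and -0.10 without mutant 3. Gpt, which makes alanine from pyruvate, had one of 0.25 (SE 0.21), which was 0.01 without control 1 and 0.41 without control 3. No gene of these 5 lists had an unadjusted p under 0.05 in limma, and none passed the adjusted threshold. That count of 0 was 7 without control 1, 3 without mutant 1 and 3 without mutant 2, and still none passed the adjusted threshold.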

How the data were processed

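Messenger RNA was profiled in 6 duodenum libraries, 3 control and 3 mutant. The labels do not say that each is a separate mouse. They were taken as such, and p-values measure only the spread between these samples. The submitters' processing notes name CASAVA 1.8.2, TopHat, Cufflinks, DESeq and mouse build mm9 but no settings. Per the file headers, gene and isoform tables hold FPKM, and the isoform tables also the read coverage, an unscaled signal, and a length in bases. The authors' deposited table gives DESeq group means of normalized counts, fold changes as a ratio, log2 fold changes and p-values, and was used only to describe.

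Of 23699 gene rows, 464 with a repeated symbol and 209 without a successful estimate were left out. Isoform rows numbered 30028, of which 518 were left out for that reason. Table starts count from 0, so 1 was added. Coverage times the length less 210.4 bases, over reads of 101 bases, gave reads whose sums per gene were whole, to within 0.05, for 70.4% to 72.7% of genes, or 88.8% to 89.9% of those under 50 reads. Read numbers are therefore estimates, and the count tests designed for deposited counts were replaced by limma, with limma-voom on the recovered reads as an alternative.

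The fit used limma (version 3.58.1, under R 4.3.3) with a prior variance that follows the mean. Its input was log2(FPKM + 0.1) of each gene whose mean reached 0.2 FPKM. The test was two-sided, with Benjamini-Hochberg adjustment over all genes tested and a threshold of 0.05. This scale understates changes of low genes. On simulated data over 14539 genes for this comparison, 72 of 100 genes changed 2-fold and 94 of 100 changed 4-fold were recovered. There were 12 false calls, and 2 calls were made when no gene was changed. No separate rate was worked out for genes with few reads, so these rates do not describe Slc43a1, Slc36a4 or Slc38a3. Whether the rates hold when many genes of a sample shift together was not tested. Alternatives were the pseudocount, the filter, other scalings, variance options, the replicate block and each library left out. The carriers and the other lists were chosen with earlier results of these data known. All carriers are named. Per-mouse values are given for the 10 most abundant and for those with an unadjusted p under 0.05 or without overlap. Of each of the 5 other pathway lists, genes with an unadjusted p under 0.05 or, where there were none, the 2 of smallest p are named, with Tmem27 always. One gene of the accessory list is not reported here. Promoter sequences are from RefSeq, build GRCm38.p6.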

Additional observations from a re-analysis of the deposited data

How the results depend on the processing

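No carrier passed the adjusted threshold under any alternative run. Over all genes the count past it went from 0 to 1 with a replicate block on the label numbers (unadjusted p under 0.05, from 416 to 850), and was 0 to 3 with 1 library left out, 3 without control 3. Samples of equal number correlated in their deviations at 0.24, 0.03 and 0.25, and samples of unequal number at -0.32 to 0.11. Controls 1 and 3 correlated best with the mutant of equal number, and control 2 with mutant 3 (0.11). The labels do not state pairs, so the numbers were not taken as pairs. Of 24 named genes, 14 kept their sign under every alternative. The other 10 changed sign when 1 library was left out, all at small changes. Their log2 changes then ranged from -0.31 to 0.24 for Slc6a19, -0.05 to 0.03 for Slc7a9, -0.41 to 0.03 for Slc3a1, -0.17 to 0.01 for Slc3a2, -0.20 to 0.21 for Slc15a1, -0.20 to 0.03 for Slc7a7, -0.04 to 0.58 for Slc6a20a, -0.36 to 0.08 for Slc7a8, -0.17 to 0.44 for Slc7a15 and -0.20 to 0.05 for Pdzk1. Without both control 1 and mutant 1, an alternative chosen after seeing the data, the changes of Slc15a1, Slc6a20a and Slc7a15 were -0.04, -0.01 and -0.05. The cause of these reversals was not tested. The change of Slc43a1 had an unadjusted p under 0.05 in 12 of 15 alternatives in limma, with a largest p of 0.058, and a filter of 1 FPKM left it out of the test. Genes of the 5 other pathway lists with an unadjusted p under 0.05 in limma numbered 0 in the main analysis, 4 with the replicate block and 5 without both control 1 and mutant 1, and none passed the adjusted threshold. Depth limits Slc6a14, Slc7a2, Slc15a2, Slc36a4, Slc38a3, Slc38a4 and Slc43a1, which rest on few reads in at least 1 group.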
